A study of Mus musculus with 12 samples.

Results

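The *Gimap* gene cluster is a row of neighbouring genes on mouse chromosome 6 that code for GTPases of the immunity-associated family. Its members *Gimap1*, *Gimap3*, *Gimap4*, *Gimap5*, *Gimap6*, *Gimap7*, *Gimap8* and *Gimap9* were found by symbol through the Ensembl identifiers of the count table, and they make up 8 of the 46078 genes counted. They were chosen by their log2 fold changes after *Rad21* knockdown in these same libraries as well as by their position, so their knockdown values are given as a description. The question asked of them was whether neighbouring genes fell together or singly when *Rad21* was depleted.

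GIMAP proteins bind GTP and sit, for several members, on membranes of the endoplasmic reticulum, lysosomes or other organelles. They are best known in lymphocytes, where loss of GIMAP1 or GIMAP5 shortens the life of mature T and B cells, and they are also transcribed in hematopoietic stem and progenitor cells. RAD21 is a core subunit of cohesin, the ring-shaped complex that holds sister chromatids together and folds chromosomes into loops.

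RNA-seq counts came from 12 libraries of C57BL/6 bone marrow hematopoietic stem and progenitor cells in 4 groups of 3. All cells had been infected with a GFP lentivirus carrying an shRNA, against luciferase in the control groups (shLuci) or against *Rad21* in the knockdown groups (shRad21). In the culture groups, LSK cells (lineage-, Sca-1+, c-Kit+) were grown for 3 days after isolation and infection, and the GFP+CD48-Sca-1+ fraction was sequenced. In the in vivo groups, infected LSK cells were given to lethally irradiated mice, and GFP+ LSK cells were reisolated, 3 months after transplantation by the labels and at a later time by the study's methods. An shRNA lowers a transcript without removing it, only GFP+ cells were collected, and the age of the mice is not given for these libraries. The labels do not say whether the 3 libraries of a group came from separate mice or cultures. The p-values set group differences against the spread between these libraries and may not hold for other mice or cultures.

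Library depth was between 15235129 and 29846689 counts, and 3 counts, taken as the detection limit, equalled between 0.107 and 0.211 CPM, the unit of counts scaled to library size that is used throughout. *Rad21* itself, the check of the labels, fell to 34.8% of control in culture (log2 fold change -1.52 ± 0.09 SE) and to 37.2% in vivo (-1.43 ± 0.07 SE). All 12 stem and progenitor genes of the marker list, *Kit* and *Ly6a* among them, were above the expression filter in both experiments. Of the 17 T cell genes of its list, *Cd3e* had at most 3 counts in every library, while 11, *Lck* among them, passed the filter in vivo. Culture libraries were made with TruSeq RNA v2 and in vivo libraries with SMART-Seq v4 followed by Nextera XT, so culture and in vivo differ in cells, in sorting gate and in chemistry at once, and these cannot be told apart. In such bulk libraries, fewer cells of one type and less RNA per cell cannot be told apart either.

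In the GRCm38 annotation the cluster runs from base 48647234 to base 48770851 of chromosome 6, over 123.618 kb, in the order *Gimap8*, *Gimap9*, *Gimap4*, *Gimap6*, *Gimap7*, *Gimap1*, *Gimap5* and *Gimap3*. *Gimap6* and *Gimap3* lie on the minus strand and the other members on the plus strand. Besides the members, 2 other genes inside the cluster were counted. *Gimap1os* is a processed transcript on the strand opposite to *Gimap1*, and *Gm28053* is a read-through model that shares exons with *Gimap7*, *Gimap1* and *Gimap5*. Of the exonic bases of *Gimap1*, 36.0% are shared with one of these genes, and 35.4% of its 51-base stretches, the length of a read, occur in another gene. Reads of *Gimap1* and *Gimap1os* could therefore not be separated with certainty, and the strand setting of the counting is not given. The related *Gimap5* and *Gimap3* have 4.36% and 7.24% of their 51-base stretches in another member, whereas *Gimap8*, *Gimap9* and *Gimap4* have none in any other gene.

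Promoter sequences were matched by symbol for 8 of the 8 members in RefSeq (GRCm38.p6), which lists 9 start sites for them, 2 of them for *Gimap8*. The 250 bases before the start are shown for *Gimap8*, the member with the largest change in culture, and for *Gimap7*, which was called lower in both experiments. They are also shown for *Gimap5*, which had the highest fold change of the members in vivo, though it was not called there. Capitals mark GGAAGT, the core bound by ETS factors, or TGTGGT, a RUNX site, on either strand. The windows are chr6:48646984-48647233, chr6:48718371-48718620 and chr6:48745947-48746196 in that order, all on the plus strand.
Gimap8: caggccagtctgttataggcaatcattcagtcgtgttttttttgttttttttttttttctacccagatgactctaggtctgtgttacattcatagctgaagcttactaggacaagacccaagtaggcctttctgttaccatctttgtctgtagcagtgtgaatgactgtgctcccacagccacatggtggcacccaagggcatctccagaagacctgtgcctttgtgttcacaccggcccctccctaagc
Gimap7: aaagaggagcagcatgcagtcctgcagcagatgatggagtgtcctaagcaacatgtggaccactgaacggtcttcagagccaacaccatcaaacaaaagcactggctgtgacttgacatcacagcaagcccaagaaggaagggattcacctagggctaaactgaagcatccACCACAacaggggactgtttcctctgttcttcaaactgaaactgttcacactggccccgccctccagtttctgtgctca
Gimap5: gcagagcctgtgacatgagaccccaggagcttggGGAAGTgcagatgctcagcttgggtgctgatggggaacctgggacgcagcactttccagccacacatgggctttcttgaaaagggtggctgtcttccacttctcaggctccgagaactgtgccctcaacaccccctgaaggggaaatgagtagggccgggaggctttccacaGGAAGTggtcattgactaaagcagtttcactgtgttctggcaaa

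In windows from 250 bases before to 50 bases after the start, searched on both strands, the ETS core was found at 4 of the 8 members and in 23.8% of the 32817 promoter windows in RefSeq. The matches lay at base -25 of *Gimap6*, at bases -216 and -44 of *Gimap5*, at base 2 of *Gimap1* and at bases 6 and 26 of *Gimap9*, counted from the start site. The RUNX site was found at 3 members, at base -145 of *Gimap4*, base -79 of *Gimap7* and base -95 of *Gimap1*, and in 16.8% of all windows. No match overlapped another. The E-box CAGCTG (16.3% of all windows), a tandem interferon-response motif (3.43%), the NF-κB consensus (8.46%) and the CTCF core (0.558%) had no match in any of the 9 windows. GC content of the 250 bases was 46.8% at the start of *Gimap8* shown and 52% at its other start, 50.8% at *Gimap7* and 55.6% at *Gimap5*, against a median of 52.4% over all windows, and the number of CpG pairs in the 3 windows shown was 2, 2 and 3 against a median of 6. A match of these letters is not evidence of binding, and these libraries hold no measurement of binding.

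In control cells the members were expressed at widely different levels. Levels between genes were compared as CPM per kb of exon, on a scale common to all 12 libraries. In cultured shLuci cells *Gimap6*, which codes for a protein that takes part in autophagy, was highest at 116 ± 8.42 CPM per kb (SD, n = 3). It was followed by *Gimap9* at 46.3, *Gimap1* at 37.2, *Gimap8* at 23.4, *Gimap4* at 12.9, *Gimap5* at 12.8, *Gimap7* at 0.831 and *Gimap3* at 0.108. Only *Gimap4* and *Gimap5* were neighbours in this order whose 3 libraries overlapped.

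In shLuci cells reisolated from mice the order of levels per kb was *Gimap6* (93.2), *Gimap1* (64.0), *Gimap9* (31.2), *Gimap5* (15.1), *Gimap8* (7.13), *Gimap7* (5.74), *Gimap4* (4.63) and *Gimap3* (1.28). The ranges of *Gimap8* and *Gimap7*, and those of *Gimap7* and *Gimap4*, overlapped. *Gimap6* alone held between 46.5% and 58.6% of the summed CPM of the cluster in each of the 12 libraries, on a scale within each experiment.

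**Figure D1:**
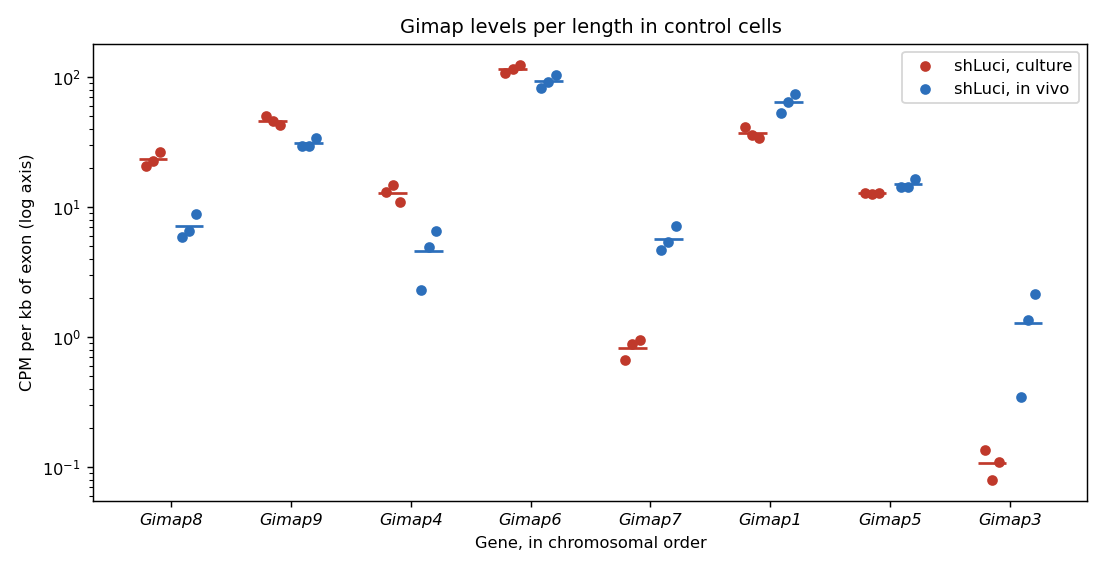
Levels of the 8 *Gimap* genes in shLuci control cells, in CPM per kb of exon on a log axis and on a scale common to all libraries, with genes in chromosomal order. Points are single libraries, 3 for each experiment, and lines are means; *Gimap7* and *Gimap3* are lower in culture than in vivo, and *Gimap8* and *Gimap4* are higher.

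The control cells of both experiments were compared in a fit of all 12 libraries, with edgeR's quasi-likelihood test and Benjamini-Hochberg adjustment over 17050 genes. Of the 8 members, 4 were higher and 4 lower in culture, where 37.1% of all genes were called higher and 37.1% lower (74.2% in either direction), so calls as such were common. The same 8 members had no overlap between the libraries, against 37.8% of all genes higher and 37.2% lower without overlap. *Gimap8* was between 76.5 and 99.3 CPM in culture and between 21.8 and 33.0 CPM in vivo, a log2 difference of 1.71 ± 0.18 SE (adjusted p = 4.58e-07). *Gimap4* differed by 1.48 ± 0.30 (adjusted p = 0.000444) and *Gimap9* by 0.57 ± 0.09 (adjusted p = 4.27e-05). *Gimap6* was higher in culture by 0.32 ± 0.10 (adjusted p = 0.00912), a call that was lost at 0.20 with upper-quartile scaling (adjusted p = 0.0821) and at 0.14 with library size alone (adjusted p = 0.197). These scalings moved the median of all genes by -0.12 and -0.17 in this comparison.

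Lower in culture were *Gimap7*, *Gimap3*, *Gimap1* and *Gimap5*. *Gimap7* was between 1.54 and 2.20 CPM in culture and between 10.8 and 16.7 CPM in vivo, a log2 difference of -2.77 ± 0.22 (adjusted p = 2.24e-08). *Gimap3* had 4 to 6 counts in the cultured control libraries and 20 to 125 in vivo, with a log2 difference of -3.56 ± 0.59 (adjusted p = 6.37e-05). *Gimap3* passed the expression filter through its in vivo libraries only, so the size of this difference rests on few culture reads. Dropping genes with any library under 10 counts removed *Gimap3*. The median log2 difference over the tested members then moved from 0.04 to 0.29. *Gimap1* differed by -0.78 ± 0.11 (adjusted p = 9.97e-06). *Gimap5* differed by -0.23 ± 0.10 (adjusted p = 0.0388), and this call was lost when any 1 of the 3 cultured shLuci libraries was left out (adjusted p between 0.0674 and 0.0990) and in 6 of the 12 cases in all, with values down to -0.16 (adjusted p = 0.180) without shLuci in vivo replicate 3.

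In culture the *Gimap* genes were lower together after *Rad21* knockdown. All 7 members with enough counts for a test fell, by between 0.38 and 2.10 on the log2 scale, and for each of the 7 every shRad21 library was below every shLuci library. The median log2 fold change over these members was -0.80, against -0.0039 over all 15543 genes tested. Over all genes, 8.06% were called lower and 6.18% higher, and 15.8% had no overlap with shRad21 lower. Because the members were chosen with this contrast in view, nothing is read from these counts.

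*Gimap8*, the longest GIMAP protein with several GTP-binding domains, changed most in culture. Its 3 shLuci libraries were at 71.7, 78.9 and 93.3 CPM and its 3 shRad21 libraries at 15.4, 22.1 and 19.7 CPM. The groups were far apart, and the mean after knockdown was 23.4% of control (log2 fold change -2.10 ± 0.14 SE). By fold change *Gimap8* ranked 94th from the lowest of the 15543 genes tested.

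Among the membrane-anchored members, *Gimap5*, which is required for the survival of peripheral T cells, was at 49.9, 49.3 and 50.6 CPM in shLuci culture and at 26.1, 30.3 and 29.97 CPM in shRad21 culture. The control libraries were close together and the groups did not overlap (log2 fold change -0.80 ± 0.09, 57.6% of control). *Gimap1*, needed for the maintenance of mature B and T lymphocytes, was at 119.6, 105 and 97.8 CPM in shLuci culture and at 77.8, 85.2 and 83.8 CPM after knockdown. This was the smallest change of a tested member (-0.38 ± 0.09, 76.7% of control), and *Gimap1* was no longer called without shRad21 culture replicate 1, 2 or 3, each left out in turn (log2 fold changes between -0.40 and -0.33). *Gimap3*, a close relative of *Gimap5*, had 5, 4 and 6 counts in shLuci culture and 3, 2 and 4 counts in shRad21 culture, too few for a test, so a change of this member was not detectable at this depth.

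The antisense transcript *Gimap1os* was at 20.5, 21.5 and 19.3 CPM in shLuci culture and at 9.53, 13.1 and 13.7 CPM in shRad21 culture. It moved in the same direction as *Gimap1* in culture and by more (-0.76 ± 0.14), though reads of this pair may be shared. *Gm28053* had at most 11 counts in any library and was not tested.

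*Gimap6* was at 355, 378 and 410.1 CPM in shLuci culture and at 224, 266 and 277 CPM in shRad21 culture. The groups did not overlap, and the most abundant member kept 67.1% of its control level (-0.58 ± 0.10). *Gimap9* was at 77.1, 71.3 and 65.8 CPM in shLuci culture and at 42.9, 46.3 and 48.1 CPM after knockdown, again without overlap (-0.64 ± 0.09, 64.1% of control).

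*Gimap4*, whose product promotes T cell death, was at 22.7, 25.5 and 18.8 CPM in shLuci culture and at 8.75, 11.5 and 12.6 CPM after knockdown (-1.02 ± 0.16, 49.2% of control). *Gimap7*, a GTPase that can activate related GIMAP proteins by pairing with them, was at 1.45, 1.93 and 2.06 CPM in shLuci culture, from 22, 40 and 47 counts. After knockdown in culture it was at 0.778, 0.861 and 0.670 CPM, from 20, 18 and 20 counts, so its change (-1.26 ± 0.26, 41.8% of control) rests on few reads. Both genes were lower in each knockdown library than in any control library.

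The size of the change did not follow the order of the genes along the chromosome. *Gimap8* at one end had the largest change, its neighbour *Gimap9* a change of -0.64, *Gimap4* -1.02, *Gimap6* -0.58, *Gimap7* -1.26, *Gimap1* -0.38 and *Gimap5* -0.80. Summed over the cluster, expression was between 697 and 739 CPM in shLuci culture and between 396 and 472 CPM in shRad21 culture. The share of *Gimap6* in this sum was between 50.8% and 55.5% in the controls and between 56.6% and 58.6% after knockdown.

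**Figure D2:**
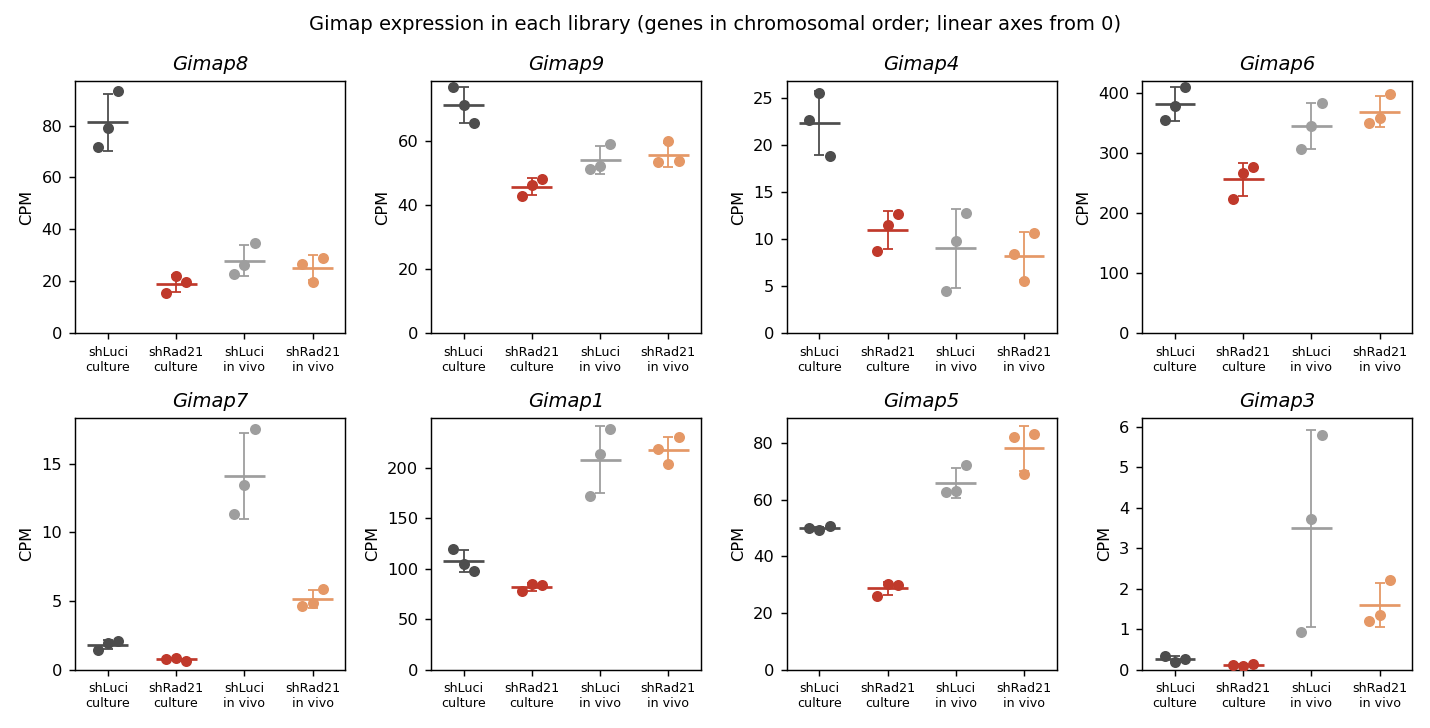
CPM of each *Gimap* gene in each of the 12 libraries, on linear axes from 0 and scaled within culture and within in vivo. Points are libraries, horizontal lines are means and error bars are SD (n = 3). In culture every shRad21 library is below every shLuci library for the 7 tested genes. *Gimap3* in culture has 2 to 6 counts, too few for a test. In vivo *Gimap7* is the gene whose groups do not overlap.

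In vivo the *Gimap* genes did not move as a block after *Rad21* knockdown. *Gimap7* was called lower, and the other 7 members were not called in either direction. The log2 fold changes were below 0 for 4 members and above 0 for 4, with a median of -0.05, against -0.0019 over all 15938 genes tested. Over all genes, 5.32% were called lower and 5.65% higher, and 14.5% had no overlap with shRad21 lower.

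*Gimap7* was at 11.4, 13.4 and 17.5 CPM in shLuci cells in vivo and at 4.67, 4.84 and 5.87 CPM in shRad21 cells. The groups were well apart, with 96 to 377 counts in each library, and knockdown left 36.4% of the control level (-1.46 ± 0.19). By fold change it ranked 293rd from the lowest of the 15938 genes tested in vivo. *Gimap7* was therefore the member called lower both in culture and in vivo, at mean levels that differed between the control groups.

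*Gimap3* had 20, 69 and 125 counts in shLuci cells in vivo (0.935, 3.73 and 5.80 CPM) and 25, 28 and 44 counts in shRad21 cells (1.22, 1.36 and 2.21 CPM). The controls were widely spread, and shLuci replicate 1 was below all 3 knockdown libraries. The log2 fold change of -1.13 ± 0.55 was not called. Without shLuci in vivo replicate 1 it was -1.58 and called, which brought the number of members called lower in vivo from 1 to 2.

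*Gimap8*, which had changed most in culture, was at 22.9, 26.1 and 34.6 CPM in shLuci cells in vivo and at 26.7, 19.8 and 29.1 CPM in shRad21 cells. The groups overlapped (-0.15 ± 0.18). *Gimap4* was at 4.44, 9.77 and 12.8 CPM in shLuci cells in vivo and at 8.36, 5.52 and 10.7 CPM in shRad21 cells, with overlapping groups and the widest relative spread after *Gimap3* (-0.14 ± 0.36).

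*Gimap6* was at 306, 345 and 382 CPM in shLuci cells in vivo and at 349, 358 and 398 CPM in shRad21 cells (0.10 ± 0.09). *Gimap9* was at 51.2, 52.2 and 59.2 CPM and at 53.4, 60.2 and 53.9 CPM in the same groups (0.04 ± 0.09). *Gimap1* was at 172, 214 and 238 CPM in shLuci and at 218, 203 and 230.2 CPM in shRad21 cells (0.06 ± 0.11). In each of these 3 genes the groups overlapped.

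*Gimap5* had the highest fold change of the members in vivo. Its shLuci libraries were at 62.7, 63.2 and 72.2 CPM and its shRad21 libraries at 82.2, 69.1 and 83.1 CPM. The groups overlapped through shRad21 replicate 2, and the log2 fold change of 0.24 ± 0.09 was not called. Without shRad21 in vivo replicate 2 *Gimap5* was called higher at 0.33. The antisense *Gimap1os* was at 14.3, 19.3 and 25.4 CPM in shLuci cells in vivo and at 20.8, 22.2 and 22.3 CPM in shRad21 cells, again with overlap (0.15 ± 0.18). Summed over the cluster, expression in vivo was between 632 and 822 CPM in shLuci and between 722 and 813 CPM in shRad21 cells.

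**Figure D3:**
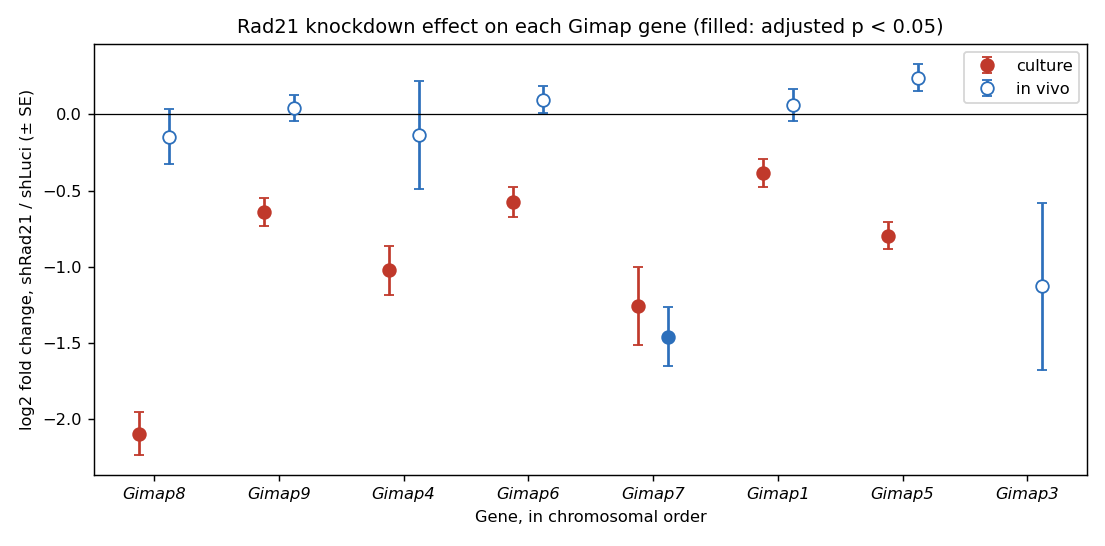
Log2 fold change of each *Gimap* gene after *Rad21* knockdown in culture (red) and in vivo (blue), in chromosomal order, with bars for SE and filled points for an adjusted p under 0.05 over all genes tested. The culture values lie between -2.10 and -0.38, the in vivo values between -1.46 and 0.24, and *Gimap3* has no culture value.

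The difference between both knockdown effects was fitted as an interaction over the 12 libraries. It was called for 4 of the 8 members, with the effect more negative in culture in each, where 3.03% of all 17050 genes were called in that direction and 1.64% in the other. The values, culture minus in vivo, were -1.94 ± 0.25 for *Gimap8*, -1.03 ± 0.14 for *Gimap5*, -0.67 ± 0.13 for *Gimap9* and -0.67 ± 0.14 for *Gimap6*. *Gimap4* (-0.88 ± 0.43) and *Gimap1* (-0.44 ± 0.15) had negative values that were not called, and *Gimap7* had 0.21 ± 0.33. For *Gimap3* the culture counts were too few for such a comparison. The contrasts that enter this term chose the members, so the count is a description.

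Genes around the cluster were compared within 500 kb on each side, where 28 other genes were counted. In culture 14 of them could be tested, of which 3 fell and 1 rose, with a median log2 fold change of -0.16 and 14.2% of all genes called in either direction. *Tmem176b* and *Tmem176a*, a pair of membrane protein genes and the nearest tested genes beyond *Gimap3*, fell by 0.51 (± 0.10 SE, adjusted p = 0.00532) and by 0.32 (± 0.09, adjusted p = 0.0305) on the log2 scale. *AI854703*, the nearest tested gene on the side of *Gimap8* at 20.5 kb from its start, was at -0.13 ± 0.18 (adjusted p = 0.703). Farther out on that side *Sspo* fell by 0.77 (± 0.19, adjusted p = 0.0223) and *Zfp467* rose by 0.38 (± 0.11, adjusted p = 0.0398).

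In vivo 13 flanking genes could be tested and 2 fell, with a median log2 fold change of 0.01 and 11% of all genes called in either direction. These were *Gm5111* (-0.82 ± 0.10, adjusted p = 0.00101) and *Zfp775* (-0.56 ± 0.15, adjusted p = 0.0408), both on the side of *Gimap8*. *Tmem176b* was at 0.01 ± 0.05 (adjusted p = 0.962) and *AI854703* at 0.02 ± 0.14 (adjusted p = 0.947). No flanking gene was called in both experiments. With each library left out in turn, *Tmem176b* in culture (adjusted p at most 0.0288) and *Gm5111* in vivo (at most 0.00503) were called in all 6 fits, whereas *Zfp467*, *Sspo*, *Tmem176a* and *Zfp775* each lost the call in at least 2, which left 1 to 3 called genes in culture and 1 to 2 in vivo.

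**Figure D4:**
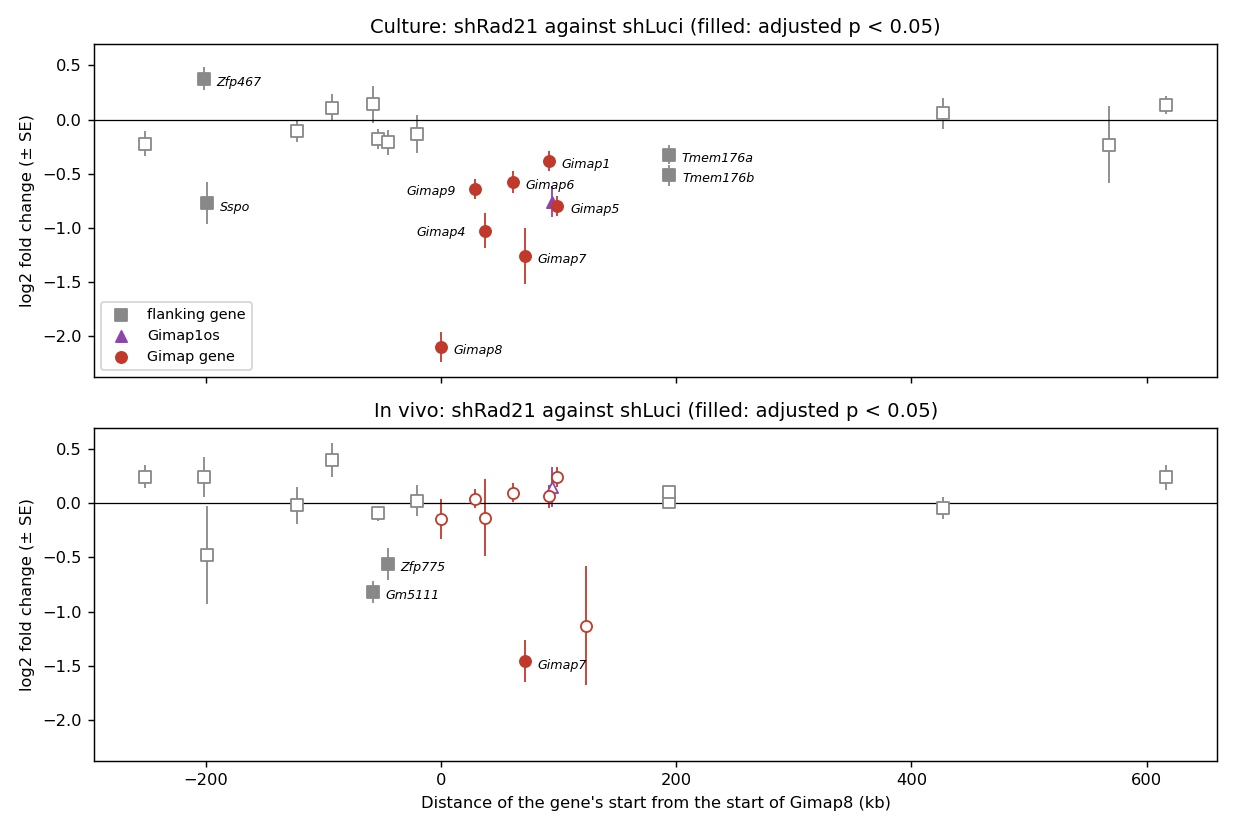
Log2 fold change after *Rad21* knockdown of the *Gimap* genes (circles), *Gimap1os* (triangle) and tested flanking genes (squares) against the distance of each gene's start from the start of *Gimap8* in kb, in culture (top) and in vivo (bottom), with SE bars and filled symbols for an adjusted p under 0.05. In culture the *Gimap* genes lie between -2.10 and -0.38 and the flanking genes between -0.77 and 0.38; in vivo *Gimap7* and 2 flanking genes are filled.

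Other gene lists, chosen with earlier results known, were set beside the cluster, and their counts stand against 8.06% of all genes lower and 6.18% higher in culture and 5.32% lower and 5.65% higher in vivo. Of 16 lymphocyte survival genes that act around the GIMAP proteins, 4 of the 15 tested fell in culture, namely *Bcl2*, *Bcl2l1*, *Bbc3* and *Pmaip1*, and the median was -0.04. The first pair protects cells from apoptosis and the second pair promotes it. In vivo 2 of 16 fell, *Bcl2* and the interleukin-7 receptor gene *Il7r*, with a median of -0.06. With 1 library left out 1 to 2 fell, and *Il7r* is also counted among the lymphoid priming genes. Among 18 tested interferon-inducible GTPase genes, which also lie in clusters, 1 fell and 2 rose in culture and 1 fell and 1 rose in vivo, shares close to the 14.2% and 11% of all genes called. With the replicate block 3 were called lower and 5 higher in culture, where 11.2% of all genes were then called lower. The share of all genes called higher with the block was not computed, so nothing is read from these counts. Leaving out 1 library gave 0 to 1 lower and 1 to 2 higher in culture, and 1 to 2 lower and 0 to 2 higher in vivo. *Gbp3* was the gene that fell in both (-0.82 in culture and -0.83 in vivo), while its family member *Gbp8* rose in both (2.10 and 1.16). Medians over this list were 0.07 and -0.05.

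Markers of lymphocytes were examined beside *Gimap7* in vivo. In vivo the summed level of 17 T cell genes was between 149 and 170 CPM in shLuci and between 90.4 and 101 CPM in shRad21 cells, and 4 of the 11 tested fell, with none higher. Of the 13 B and plasma cell genes 8 fell (5 without shLuci in vivo replicate 3), with overlapping sums between 1376 and 4247 CPM in shLuci and between 1282 and 2591 CPM in shRad21 cells, and of 18 lymphoid priming genes 13 fell, with sums between 2786 and 3369 CPM and between 1186 and 1509 CPM. Of 8 tested NK cell genes 1 fell (*Nkg7*) and 2 rose (*Klrb1c* and *Gzmb*), with sums between 329 and 437 CPM and between 260 and 289.8 CPM. With 1 library left out 1 to 2 fell and 1 to 2 rose. In these sums *Nkg7* had up to 9049 counts in a library, while *Gzmb* had at most 112 in vivo. Their part in the change of *Gimap7* was not tested.

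In culture these lists were at lower levels. The T cell sum was between 79.2 and 94.8 CPM in shLuci and between 58.8 and 72.6 CPM in shRad21 culture, with 1 of 6 tested genes called lower (0 to 3 with 1 library left out), and the lymphoid priming sum was between 1144 and 1181 CPM and between 841 and 968 CPM, with 9 of 14 called lower and 1 higher. The B and plasma cell sums overlapped, at 81.1 to 102 and 61.6 to 89.3 CPM, with 1 of 4 tested genes lower, and so did the NK cell sums, at 39.9 to 125 and 26.7 to 113 CPM, with 1 of 3 lower.

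Endothelial cells, which also transcribe *Gimap* genes, were represented by 10 genes whose sum was higher after knockdown in both experiments, at 221 to 291 against 302 to 323 CPM in culture and 168 to 203 against 278 to 301 CPM in vivo. In these sums *Tie1* had up to 8448 counts in a library and *Robo4* up to 1435. Every other gene of the list had at most 188, with *Cdh5* at most at 23 and *Nos3* at 19. Of 8 tested endothelial genes 1 fell and 0 rose in culture, and 3 rose in vivo. Mature myeloid genes summed to 45.0 to 76.2 CPM in shLuci and 14.0 to 22.5 CPM in shRad21 culture (3 of 5 lower), and to 413 to 526 and 284 to 421 CPM in vivo (3 of 9 lower, and 0 without shRad21 in vivo replicate 3). Of the 12 stem and progenitor genes 7 rose and 1 fell in culture, and 6 rose and 2 fell in vivo. *Kit*, a marker of the LSK gate, fell in both (-1.42 in culture and -0.42 in vivo), and *Cd34* fell in vivo. With 1 library left out 5 to 8 rose and 1 to 2 fell in culture, and 5 to 6 rose and 1 to 3 fell in vivo. The part of these lists in the *Gimap* values was not tested.

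Among 14517 genes tested in both experiments, those with the profile most like the *Gimap* genes were found by Pearson's r over the 12 libraries, with the mean of 7 members (without *Gimap3*) and after each experiment's mean was subtracted. Among the 5 with the highest r were *Axl* (r = 0.958), *Gm15675* (0.955), *Shisa5* (0.955) and *Bmf* (0.954). None of these 4 lies on chromosome 6, and because the libraries share 1 knockdown contrast in each experiment, r describes that contrast. Each member was compared in the same way with the mean of the other 6, which gave r between 0.837 and 0.948 for 6 members, the highest for *Gimap8*, and 0.525 for *Gimap7*.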

How the data were processed

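RNA-seq counts of 12 libraries were used. Per the labels and the study's methods, the authors removed rRNA reads, quality-trimmed the rest, aligned reads to GRCm38 using TopHat2 2.0.11 and assigned them to genes with HTSeq 0.6.1. The strand setting and annotation release of the counting are not given in the sources used here. The deposited values are raw counts, not normalized. Groups and replicate numbers were taken from the labels. Identifiers were matched to GENCODE M21 (45143 of 46078, with 0.161% of all counts unmatched).

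Counts were scaled by TMM, filtered with filterByExpr (10 counts, 15 in total) and tested with edgeR 4.0.16 in R 4.3.3 (quasi-likelihood test, two-sided, Benjamini-Hochberg adjustment over all genes tested, threshold 0.05). Knockdown was fitted separately in culture and in vivo, in 6 libraries each. The comparison of control cells and the interaction were fitted in all 12 libraries. An estimate with its SE comes from these fits. CPM of a gene within an experiment used the scale of that experiment. CPM between experiments used a scale common to all libraries. The members and all gene lists were chosen with earlier results of these data known. Named were the members, genes inside the cluster, flanking genes called in either knockdown or nearest to the cluster, *Rad21*, the 5 genes most alike (1 of them is not reported here), and list genes on which a sentence turns. Likeness used log2(CPM + 0.5).

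The procedure was tested on simulated data with 200 changed genes. At a log2 change of 1 it recovered 86% in culture, 77% in vivo, 84% in the comparison of control cells and 69% in the interaction, and 8.82%, 6.95%, 7.33% and 6.51% of its calls were genes that had not been changed. Alternatives were other scalings, DESeq2 1.42.0, other filters, 1 model of all libraries, a replicate block and leaving out each library. No library was counted as a duplicate, since chi-square over its degrees of freedom was 5.73 to 20.7 between replicates of a group. Limits from counts cover counting error only. Same-numbered libraries deviated together in culture (r between 0.216 and 0.262 for 3 pairs, against -0.32 to 0.07 for the others) and not in vivo (0.0240 to 0.0694). The replicate numbers therefore pair the culture libraries, although the labels do not state what a number marks.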

Additional observations from a re-analysis of the deposited data

Results flagged for a closer look

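For 4 *Gimap* genes the knockdown effect differed between culture and in vivo by the interaction term of the fit across all genes. Culture minus in vivo, the log2 values were -1.94 for *Gimap8* (-2.10 in culture and -0.15 in vivo), -1.03 for *Gimap5* (-0.80 and 0.24), -0.67 for *Gimap9* (-0.64 and 0.04) and -0.67 for *Gimap6* (-0.58 and 0.10). All 4 were called in each of the 12 fits that left out 1 library, with *Gimap8* between -2.13 and -1.80. The members were chosen with both knockdown effects known, so these values describe the cluster and are no independent test.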

How the results depend on the processing

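In culture 7 members were called lower and 0 higher under all 8 other settings, and leaving out 1 library gave 6 to 7. The replicate block, which follows the pairing of culture libraries, kept all 7, where 11.2% of all genes were then called lower, and changed no other call of a member in the knockdown or control comparisons. In vivo, 1 member was called lower and 0 higher. Without a filter on low counts these were 2 (*Gimap3* added) and 1 (*Gimap5*), and leaving out 1 library gave 1 to 2 and 0 to 1. Without a filter the interaction was called for 6 members, and *Gimap5* did not pass in the control comparison (-0.21, adjusted p = 0.0996). Of the flanking genes called in culture (4), 2 were called in 1 model of all 12 libraries and 1 to 3 with 1 library left out. Of those called in vivo (2), 1 was called with the replicate block and 1 to 2 with 1 library left out. The interaction of *Gimap3* was 0.04, and -0.20 with the replicate block. *Tmem176b* in vivo was -0.0093 in 1 model of 12 libraries.

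With 1 library left out, in vivo values that changed sign ranged from -0.27 to 0.041 for *Gimap8*, -0.010 to 0.11 for *Gimap9*, -0.46 to 0.21 for *Gimap4*, -0.054 to 0.17 for *Gimap1*, -0.035 to 0.38 for *Gimap1os* and -0.014 to 0.032 for *Tmem176b*. The interaction of *Gimap3* ranged from -0.56 to 0.49 and *Gm5111* in culture from -0.012 to 0.31. With the replicate block 11.2% of all genes were called lower in culture, and the share called higher was not computed. Of the marker lists in culture, the block gave 2 T cell and 2 NK cell genes lower (1 each without it) and 2 endothelial genes higher (0 without it). The cause of these changes was not tested. Depth limits *Gimap3* in culture (2 to 6 counts) and *Gimap7* in culture (18 to 47 counts).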
